A study of Mus musculus with 15 samples.

Results

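Medullary thymic epithelial cells (mTEC) were compared with epithelial cells of the lung, gene by gene, to describe which airway and alveolar programmes mTEC carry, at what share of the lung level, and which are missing. The comparison used the 3 mTEC and the 3 lung libraries of a series of 15, chosen by their sample titles, and read the gene counts of the sense strand. All animals were C57BL/6J males aged 8 weeks, with no genetic change or treatment given in the labels. Epithelial cells were sorted from thymus, skin, lung and colon, and each library was made from the pooled cells of 5 mice. For mTEC, cortical thymic cells (cTEC) and skin the library kit was KAPA RNA Stranded PolyA, whereas lung and colon had KAPA RNA HyperPrep PolyA. Tissue and kit therefore cannot be told apart in any value of mTEC against lung. For that reason each programme is also given against cTEC, which share the thymus and the kit with mTEC. Both comparisons use the same mTEC libraries. The series as a whole concerned the differing amounts of MHC class I on epithelial cells of these organs.

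mTEC display proteins of other organs to developing T cells, so that self-reactive cells are removed or diverted. Many of these genes depend on Aire, a transcriptional regulator active in part of the mTEC, and some mTEC take on a differentiated form that resembles a peripheral cell type, such as tuft, ciliated, secretory or keratinized cells. In the lung, flat alveolar type 1 cells exchange gas, alveolar type 2 cells make surfactant, multiciliated and club cells line the airways, and basal, goblet, neuroendocrine, ionocyte and tuft cells are rarer. The programmes of these cell types were represented by 15 lists with 266 genes, and 10 further lists covered thymic, epithelial, contaminating and stress-related genes.

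The markers of each group were where the labels place them. Aire was measured at 613, 242 and 587 CPM (reads relative to library size, after TMM scaling) in mTEC replicates 1, 2 and 3, against 2 reads in all lung libraries. In the lung, the type 2 marker Sftpc was at 11111, 5352 and 4309 CPM, and the ciliated-cell regulator Foxj1 at 157, 111 and 78.6 CPM. The cTEC libraries also held Aire, at 39.4, 26.4 and 67.1 CPM. Summed over 14 medullary thymic genes, levels were 9621 to 11223 CPM in mTEC and 9697 to 13532 CPM in cTEC. Of these genes, 7 were higher in mTEC than in cTEC and 1 lower (2 with the replicate number as a block). Gene reads numbered 15696678 to 18538657 in mTEC and 38561052 to 41978665 in lung. Markers of several other cell types differed between the groups. Of all genes tested, 34.9% were higher in mTEC than in lung and 28.6% lower. Summed endothelial markers were at 24.4 to 42.9 CPM in mTEC and 375 to 550 CPM in lung (11 of 12 lower in mTEC), and fibroblast markers at 590 to 629 CPM against 1399 to 1947 CPM (9 of 12 lower, with Acta2 higher). T-cell markers summed to 36.4 to 63.2 CPM in mTEC and 1.42 to 5.48 CPM in lung (11 of 12 higher). Of 15 myeloid markers, 5 were higher (3 without mTEC replicate 1, lung replicate 1 or lung replicate 2) and 1 lower in mTEC, with sums of 181 to 231 CPM against 578 to 701 CPM, most of the lung sum being Csf1r at 477, 591 and 550 CPM. B-cell markers summed to 19.8 to 62.0 CPM against 3.4 to 6.31 CPM (5 of 7 tested higher), while 4 of 6 mesothelial markers were lower and Msln higher, with sums of 105 to 164 CPM against 308 to 410 CPM. The share of myeloid markers that were higher was close to that over all genes. The part of these cells in the results below was not tested. In bulk samples, fewer cells of a type and less RNA per cell cannot be told apart.

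Across the transcriptome the cell populations were far apart. Of 19107 genes tested, 12148 (63.6%) passed an adjusted p of 0.05 between mTEC and lung, 6674 higher in mTEC (34.9%) and 5474 lower (28.6%). The libraries of the groups did not overlap for 77.0% of the genes. Against cTEC, 4714 genes passed (24.7%), 2908 higher in mTEC (15.2%) and 1806 lower (9.45%). With the replicate number as a block in a fit of the mTEC and cTEC libraries alone, 7091 passed, of which 3167 were lower. Markers of other cell types differed here too. Of 15 myeloid markers 8 were higher than in cTEC and 1 lower, with sums of 181 to 231 CPM against 51.3 to 89.5 CPM, and 4 to 7 were higher when single libraries were left out, the fewest without mTEC replicate 1, with 5 without cTEC replicate 2. Of 6 mesothelial markers 4 were higher, with cTEC sums of 22 to 43.8 CPM and no cTEC read of Wt1. All 5 erythroid markers tested were higher, at sums of 2.96 to 8.45 CPM against 0.336 to 1.52 CPM, but 1 was with the replicate block or without mTEC replicate 1, 2 without cTEC replicate 3 and 3 without cTEC replicate 2. Of 12 T-cell markers 4 were lower, or 9 with the block and 1 to 3 without single libraries. Their part in the comparison with cTEC was not tested. The median gene stood at a log2 fold change of 0.14 against lung, and the median ratio of mean CPM was 104%. Among the 11041 tested genes with at least 5 CPM in lung, that median was 77.8%. Most listed alveolar, club and ciliary structure genes were at this level, so their shares are read against the lower value.

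Genes that passed were ranked if they had at least 10 CPM on the higher side and 10 reads on the lower side. Genes with overlapping libraries or a clone or pseudogene name were left out. Aire, with fewer lung reads, fell outside this ranking, at 14.19 (16.31 without lung replicate 1). Of the genes ranked, Ccl21a, a chemokine that draws thymocytes into the medulla, was 12.56 ± 0.89 log2 units higher in mTEC (SE, n = 3 per group). In cTEC it was at 904, 1145 and 500 CPM, and mTEC against cTEC did not pass (1.04 ± 0.53, adjusted p = 0.175). Ubd, Spib, Alox15, Lpo, Alox12e, Ache and Wfikkn2 followed, at 12.06 to 10.21. These genes had few lung reads, and single libraries moved several values and their order. Without lung replicate 3, which held nearly all of its 28 lung reads, the Ccl21a value was 15.56, Spib came to 12.51 and Ache to 10.99. Without lung replicate 1, Ubd came to 14.96, Lpo to 15.19, Alox12e to 12.01 and Alox15 to 11.88. At the other end, Cldn18, Col4a3, Ager, Cavin2, Cped1, Cyp2b10, Sec14l3 and Cyp4b1 were lowest, at log2 fold changes of -11.66 to -10.44.

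**Figure D1:**
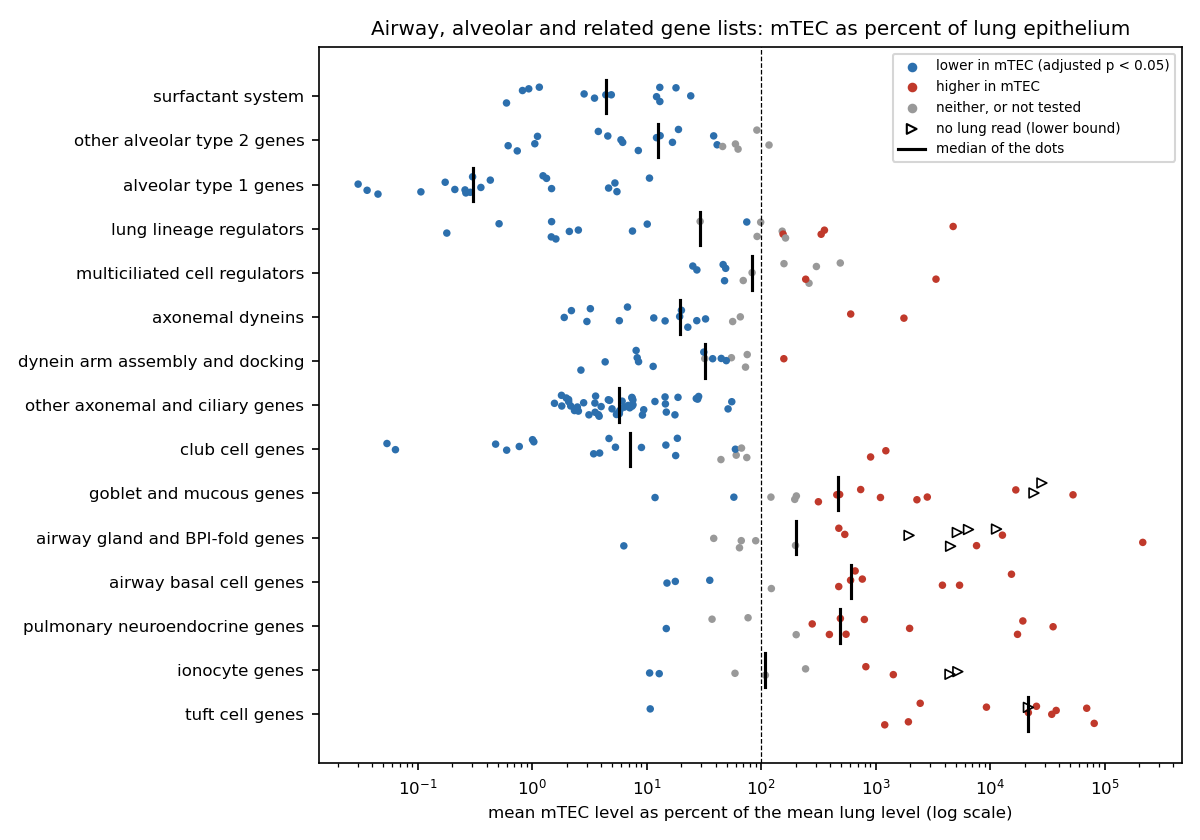
Each dot is a gene, placed at its mean mTEC level as a percent of its mean lung level (log axis), by gene list; bars are medians of the dots and open triangles are lower bounds for genes without a lung read. Alveolar type 1 genes sit lowest (median 0.302%), the ciliary structure lists at medians of 5.77 to 32.2%, and the goblet, basal and tuft lists mostly above the dashed line at 100%.

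Surfactant is a film of lipid and protein that type 2 cells secrete to keep the alveoli open. mTEC held reads of all 13 surfactant-system genes, and all 13 were lower than in lung, at 0.597 to 24.3% of the lung level (median 4.40%; median log2 fold change -4.50). Sftpc, which encodes surfactant protein C (chr14:70520949-70524081, GRCm38), measured 3.87, 24.1 and 96.0 CPM in mTEC. This is 0.597% of the lung mean and a log2 fold change of -7.39 ± 1.15 (adjusted p = 6.33e-05), with each mTEC library far below each lung library. Without mTEC replicate 3, the highest, the value was -8.94. Sftpb was at 0.823%, Sftpa1 at 1.15% and Sftpd, a collectin of innate defence, at 3.5% of lung. Leaving out mTEC replicate 3 took Sftpb from -6.91 to -8.15 and Sftpa1 from -6.43 to -7.17. Lamp3, a lysosomal membrane protein of lamellar bodies, stood at 0.934% and came to -7.55 instead of -6.71 without that library. In this list 8 of 13 genes were highest in mTEC replicate 3, as were 35.6% of all tested genes with at least 1 CPM in mTEC.

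Abca3, the lipid pump of the lamellar body, was at 53.6, 41.0 and 64.6 CPM in mTEC against 472, 387 and 363 CPM in lung, or 13%. Slc34a2, a phosphate transporter of type 2 cells, stood at 18.0%, and Ctsh, a protease that trims surfactant proteins, at 24.3%. Prdx6, which takes part in surfactant lipid turnover, was at 4.91%. Each mTEC library was below each lung library for Abca3.

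Within the thymus, 8 of the 13 genes were higher in mTEC than in cTEC, where 15.2% of all genes were, and the median log2 difference was 2.24. Ctsh was 2.26 ± 0.25 and Napsa, another protease of surfactant processing, 2.24 ± 0.44 log2 units above cTEC, while Abca3 (0.11 ± 0.16) and Prdx6 (-0.42 ± 0.27) did not pass. Sftpa1 was 3.38 ± 0.56 above cTEC, or 2.62 without mTEC replicate 3. The call for Sftpc (3.04 ± 0.97, adjusted p = 0.0344) was lost without mTEC replicate 3 (1.47, adjusted p = 0.261), cTEC replicate 1 (adjusted p = 0.10) or cTEC replicate 2 (adjusted p = 0.114), and the value was 3.71 without cTEC replicate 3. In the list, 5 to 8 genes passed when single libraries were left out, the fewest without mTEC replicate 3. Low Sftpc counts were also present outside lung and thymus. Skin measured 30.8, 2.56 and 6.67 CPM, a range that overlaps that of mTEC, and colon 0.492 to 0.767 CPM. Summed over the 13 genes, levels were 562 to 702 CPM in mTEC and 407 to 479 CPM in cTEC. The sums were 402 to 616 CPM in skin, 809 to 1314 CPM in colon and 12884 to 23054 CPM in lung.

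Other type 2 genes formed a gradient. Of 20, 15 were lower in mTEC than in lung and 5 did not pass (median 12.7% of lung). The chemokine Cxcl15 was at 1.26, 2.01 and 7.46 CPM in mTEC against 858, 514 and 367 CPM, or 0.617%, and its log2 value went from -7.31 to -8.45 without mTEC replicate 3. Egfl6, a matrix protein, stood at 0.741% (-7.01; -7.83 without that library). Lyz2, a lysozyme, was at 5.97% and the secreted ribonuclease Rnase4 at 3.78%. At the other end were genes with wider use, the iron-sequestering Lcn2 (91.8%, -0.12 ± 0.37) and the growth-factor receptor Fgfr2 (117%, 0.23 ± 0.18), whose groups overlapped. Against cTEC 9 of the 20 were higher in mTEC and 4 lower, and the median was 1.59. Summed over the 20 genes, levels were 820 to 983 CPM in mTEC and 969 to 1098 CPM in cTEC. The sums were 1203 to 1660 CPM in skin, 683 to 697 CPM in colon and 4744 to 8475 CPM in lung. In lung, 19 of 20 were highest in replicate 1, as were 37.4% of all genes with at least 1 CPM in lung.

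**Figure D2:**
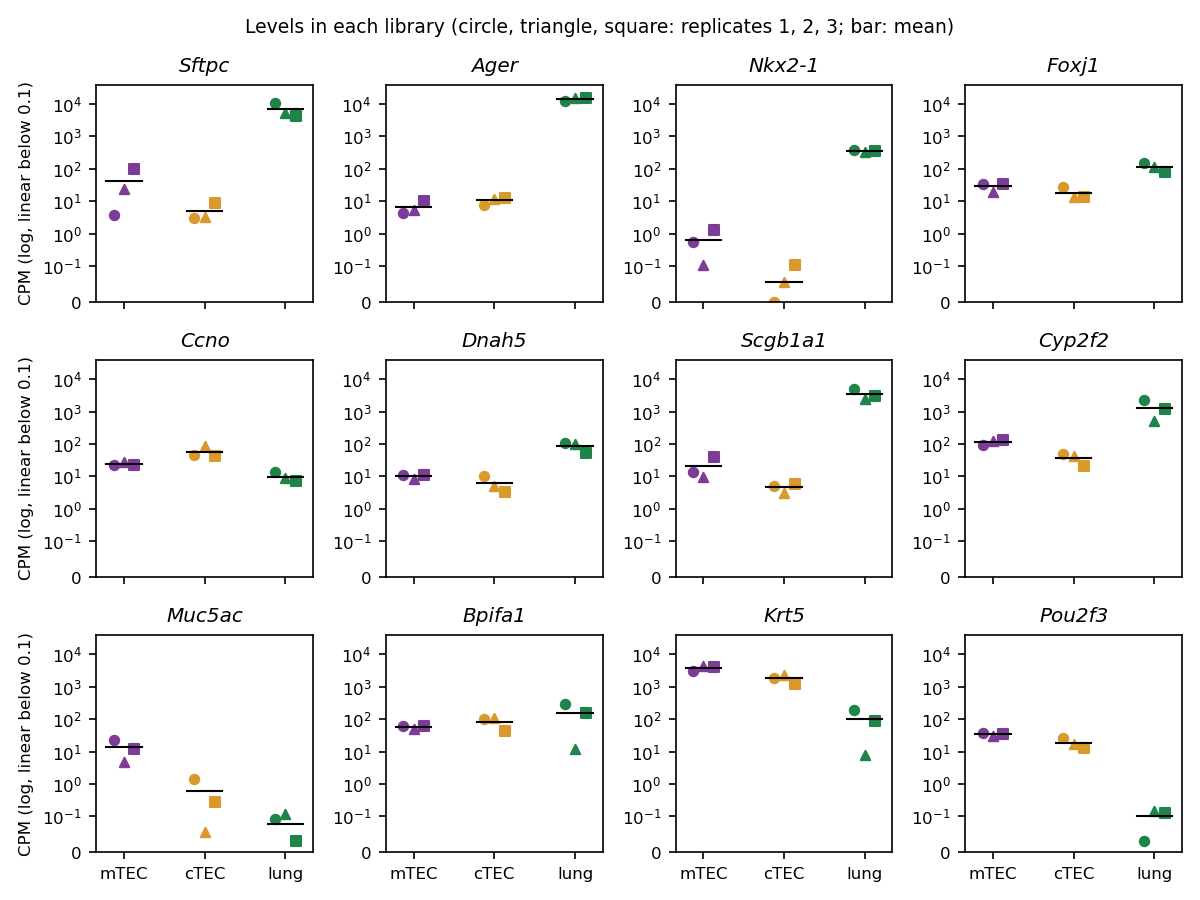
Each panel is 1 gene and each symbol 1 library, in CPM on a log axis (linear below 0.1), with bars at group means. The 3 mTEC libraries lie below all lung libraries for Sftpc, Ager, Nkx2-1, Foxj1, Dnah5, Scgb1a1 and Cyp2f2, above them for Ccno, Muc5ac, Krt5 and Pou2f3, and within their range for Bpifa1.

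The alveolar type 1 programme was the lowest of the 15. All 19 genes were lower in mTEC, at 0.0302 to 10.6% of lung with a median of 0.302%, and 12 of them were under 1%. Ager, the receptor for glycation end products (chr17:34597862-34600936), measured 4.42, 5.25 and 9.89 CPM in mTEC against 12639, 15365 and 15493 CPM, or 0.0450% (-11.11 ± 0.48, adjusted p = 2.83e-10). Cldn18, a tight-junction claudin, was at 0.0302%, and Col4a3, a basement-membrane collagen, at 0.0361%. Aqp5, a water channel, stood at 0.356% and Hopx, a homeodomain cofactor, at 0.431%. The genes nearest the lung level were Pdpn (10.6%), a mucin-like surface protein that thymic epithelium also carries, and Spock2, a matrix proteoglycan (5.50%).

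Within the thymus the type 1 list was split, with 4 genes higher in mTEC than in cTEC and 6 lower (9 with the replicate block), and a median of -0.43. Ager was at 7.90 to 12.4 CPM in cTEC, and the mTEC difference of -0.71 ± 0.33 did not pass. Gprc5a, a retinoic-acid-induced receptor, was at -2.80 ± 0.25 against cTEC. Summed over the list, levels were 838 to 946 CPM in mTEC and 1428 to 1607 CPM in cTEC. The sums were 1161 to 1385 CPM in skin, 1626 to 2096 CPM in colon and 64385 to 74921 CPM in lung. In lung, 16 of 19 type 1 genes were lowest in replicate 1, where the type 2 genes were highest; of all genes, 39.1% were lowest there.

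The regulators that specify lung epithelium were split as well. Nkx2-1, the homeodomain factor that defines the lung lineage and drives surfactant genes, measured 0.553, 0.112 and 1.26 CPM in mTEC (42 reads) against 370, 332 and 368 CPM. This is 0.180% and -9.04 ± 0.46 log2 units, or -9.98 without mTEC replicate 3. It was above cTEC (3.53 ± 0.86, adjusted p = 0.00948), a call that was lost without mTEC replicate 3 (adjusted p = 0.0527), and the value was 2.93 without cTEC replicate 1 and 4.44 without cTEC replicate 3. Gata6, an early endoderm factor, was at 0.514%. Of 19 regulators 10 were lower and 4 higher than in lung, with 5 neither. Without mTEC replicate 3, 2 were higher. Etv4 lost its call without mTEC replicate 1 or 3 or lung replicate 2 or 3 (adjusted p of 0.0790 to 0.123), and Foxp4 without mTEC replicate 3 or lung replicate 2 or 3 (0.0600 to 0.0765). Sox9, which marks the growing tips of the embryonic lung and is used by many other epithelia, was at 271, 424 and 256 CPM against 9.90, 5.96 and 4.12 CPM (5.57 ± 0.41). Cebpa, needed for type 2 maturation, was at 357% (1.84 ± 0.26). Sox9 (0.43 ± 0.33) and Cebpa (-0.33 ± 0.25) did not pass against cTEC. Elf3 and Klf5, general epithelial factors, were at 92.2 and 99.1% of lung and did not pass against lung. Against cTEC 8 of the 19 regulators were higher in mTEC and 1 lower, where 15.2% of all genes were higher and 9.45% lower. The median log2 difference was 0.77. When single libraries were left out, 3 to 7 were higher, the fewest without mTEC replicate 1.

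Multiciliated cells arise when Gmnc and Mcidas, with E2f4 or E2f5, switch on Ccno, Deup1 and Myb to multiply centrioles, and Foxj1 with Rfx2 and Rfx3 switches on the genes of the motile axoneme. Mcidas, Ccno and Cdc20b are neighbours on mouse chromosome 13. Promoter windows follow, RefSeq sequence of GRCm38.p6 from 250 bases before to 50 after the transcript start. They are shown for 2 regulators that were above the lung level (Mcidas, Ccno), for an axonemal gene that did not pass against lung (Dnaic2) and for one far below it (Hydin). Capitals mark GTTGCC or its reverse complement GGCAAC, the half-site of the X-box that RFX factors recognize.
Mcidas (chr13:112993618-112993917, + strand): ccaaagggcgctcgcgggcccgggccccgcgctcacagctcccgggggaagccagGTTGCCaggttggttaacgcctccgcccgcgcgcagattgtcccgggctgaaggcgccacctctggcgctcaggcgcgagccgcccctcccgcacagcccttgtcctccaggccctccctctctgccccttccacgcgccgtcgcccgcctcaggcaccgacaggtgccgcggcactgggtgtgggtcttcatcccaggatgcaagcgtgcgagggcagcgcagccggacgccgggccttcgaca
Ccno (chr13:112987552-112987851, + strand): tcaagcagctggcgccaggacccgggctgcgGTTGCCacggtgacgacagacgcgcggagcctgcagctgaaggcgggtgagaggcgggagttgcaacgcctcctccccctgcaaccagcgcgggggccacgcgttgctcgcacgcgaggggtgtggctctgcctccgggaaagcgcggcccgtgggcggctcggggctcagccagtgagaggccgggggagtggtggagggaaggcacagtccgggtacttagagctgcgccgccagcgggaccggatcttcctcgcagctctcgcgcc
Dnaic2 (chr11:114727169-114727468, + strand): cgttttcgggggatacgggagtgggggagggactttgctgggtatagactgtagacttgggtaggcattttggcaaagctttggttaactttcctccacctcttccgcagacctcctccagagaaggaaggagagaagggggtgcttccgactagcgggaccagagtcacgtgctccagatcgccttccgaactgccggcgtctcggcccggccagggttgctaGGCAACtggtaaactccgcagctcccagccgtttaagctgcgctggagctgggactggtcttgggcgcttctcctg
Hydin (chr8:110266727-110267026, + strand): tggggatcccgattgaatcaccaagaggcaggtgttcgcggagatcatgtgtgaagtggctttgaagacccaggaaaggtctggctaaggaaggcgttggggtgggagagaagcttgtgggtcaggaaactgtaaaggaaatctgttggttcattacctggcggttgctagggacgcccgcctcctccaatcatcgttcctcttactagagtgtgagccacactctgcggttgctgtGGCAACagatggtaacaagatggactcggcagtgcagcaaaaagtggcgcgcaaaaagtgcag
These 4 windows were chosen from the genes whose window holds the half-site. The windows of Dnah5, Foxn4 and Cfap43 had none. On either strand it was present in 34 of the 67 ciliary structure genes with a window (50.7%) and in 6 of 10 regulators, against 14.1% of all 27025 genes with one. A forkhead-type motif, GTAAACA or its reverse complement TGTTTAC, was present in 5 of the 67, or 7.46%, against 4.05% of all genes. These are matches of letters, not sites of binding.

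Among the regulators, Mcidas and Ccno were above the lung level in mTEC. Mcidas (chr13:112993845-113000394) gave 3.17, 0.447 and 2.60 CPM in mTEC, 131 reads, and 6 lung reads, all in lung replicate 1 (4.97 ± 1.09, adjusted p = 0.00111; 8.46 without that library, fitted against no lung read). Ccno (chr13:112987802-112990777), which drives centriole multiplication, was at 21.9, 28.3 and 22.2 CPM against 13.6, 8.82 and 7.12 CPM, or 245% (1.29 ± 0.32, adjusted p = 0.00246). Each mTEC library was above each lung library for both genes. Ccno was higher still in cTEC, at 44.8, 86.1 and 43.7 CPM (-1.27 ± 0.31), a call lost without cTEC replicate 2 (adjusted p = 0.0725) or mTEC replicate 1 (adjusted p = 0.0522). Foxn4, a forkhead factor of multiciliated cells, was at 2.26, 0.614 and 1.52 CPM against 0.492, 0.521 and 0.433 CPM. It missed the threshold (1.60 ± 0.65, adjusted p = 0.0535) and passed with DESeq2 size factors (adjusted p = 0.0399). In cTEC it had 1 read, against 91 in mTEC. Gmnc, the first step of the cascade, had 51 reads in mTEC and 31 in lung, and Cdc20b 43 and 14, too few to be tested. Myb was at 158% of lung without passing (0.66 ± 0.62).

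Foxj1, the switch of the axonemal programme, fell below lung. It measured 33.1, 19.5 and 35.1 CPM in mTEC against 157, 111 and 78.6 CPM, which is 25.3% (-1.98 ± 0.36, adjusted p = 0.00026), and the groups did not overlap. Its partners Rfx2 and Rfx3 were at 47.9 and 46.6%, and Trp73, a regulator of multiciliated differentiation, at 49.0%. Rfx2 did not pass without mTEC replicate 1 (adjusted p = 0.0515) or 3 (0.0843), nor Rfx3 without mTEC replicate 3 (adjusted p = 0.0530). Deup1, of the deuterosome, was at 27.5% (-1.86 ± 0.66), a call lost without lung replicate 1 or 2 or mTEC replicate 2 or 3, with adjusted p of 0.0645 to 0.111. In all, 2 of the 11 regulators tested were higher in mTEC than in lung, 5 lower and 4 neither. Of all genes, 34.9% were higher and 28.6% lower. Against cTEC, Foxn4 was higher and Ccno and Trp73 lower, and Foxj1 was at 0.71 ± 0.36 without passing. With the replicate block, 5 regulators were higher than in cTEC, and without cTEC replicate 1 there were 4.

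**Figure D3:**
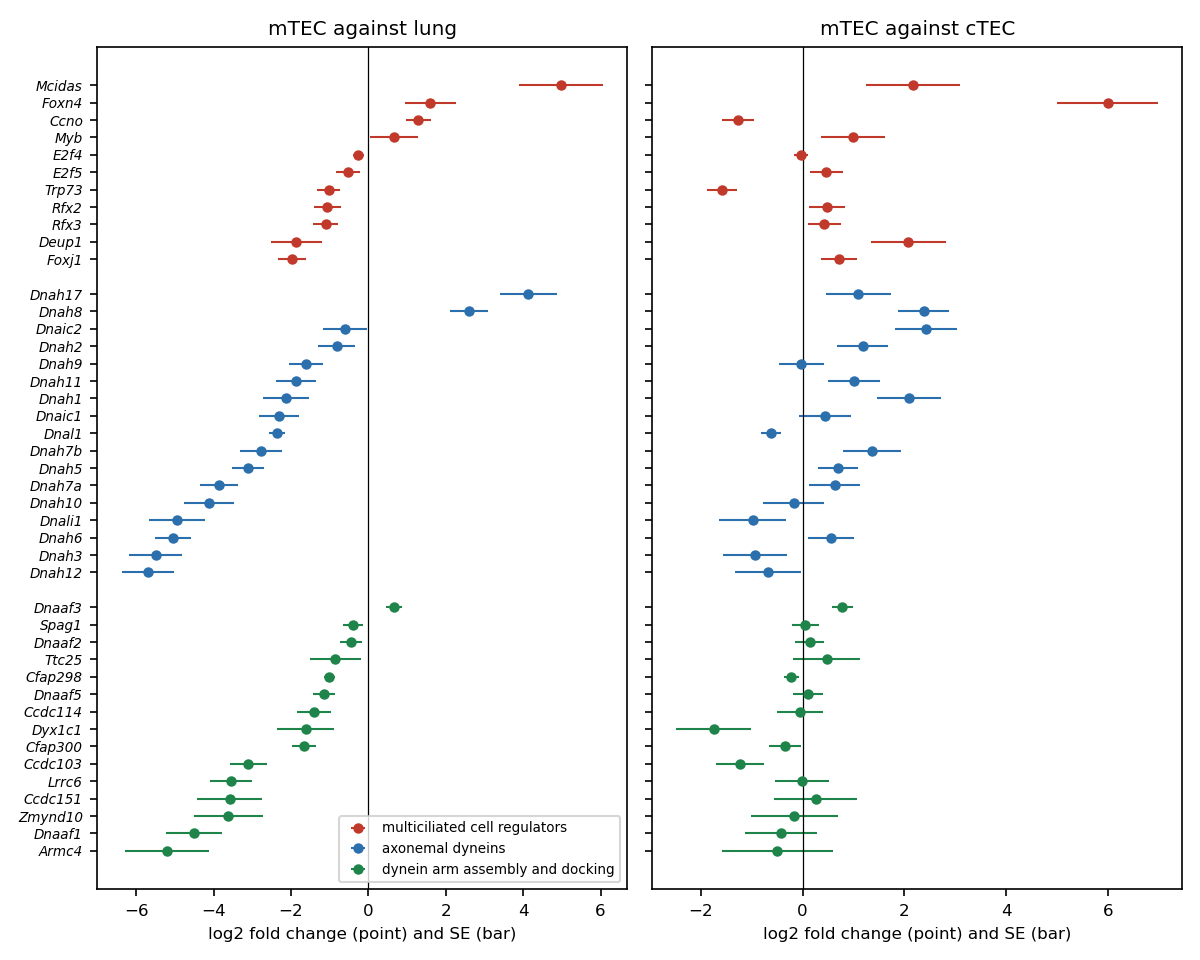
Points are log2 fold changes of mTEC against lung (left) and against cTEC (right) for the tested multiciliated-cell regulators, axonemal dyneins and dynein arm assembly genes; bars are standard errors. On the left, Mcidas (4.97), Dnah17 (4.13) and Dnah8 (2.60) lie furthest to the right of 0 and Dnah12 (-5.70) and Dnah3 (-5.50) furthest to the left.

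The axoneme itself was present as a small fraction. Of 82 ciliary structure genes found in the tables, 81 were tested: 72 were lower in mTEC than in lung, 3 higher and 6 neither. The median was 7.44% of lung and -3.74 on the log2 scale. Among axonemal dyneins, the motors of ciliary beating, Dnah5, an outer-arm heavy chain, was at 10.8, 8.04 and 11.3 CPM against 108, 98 and 54.3 CPM (11.5%). Dnaic1, an outer-arm intermediate chain, stood at 20.1%. The inner-arm heavy chains Dnah6, Dnah3 and Dnah12 were lower, at 3.01, 2.2 and 1.91%. Without mTEC replicate 1, Dnah6 was at -5.72 instead of -5.05 and Dnah12 at -6.61 instead of -5.70. Dnaic2, another outer-arm intermediate chain, was near lung, with 34.5, 9.43 and 20.3 CPM against 41.7, 32.6 and 23.3 CPM (65.8%, -0.60 ± 0.57), and its groups overlapped.

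A pair of dynein genes went the other way. Dnah8 measured 10.5, 7.15 and 8.59 CPM in mTEC against 2.09, 1.30 and 0.928 CPM in lung (606%, 2.60 ± 0.49). Dnah17 measured 11.8, 3.74 and 7.55 CPM against 0.246, 0.318 and 0.743 CPM (4.13 ± 0.74; 4.72 without lung replicate 3). Both are best known as dyneins of the sperm flagellum. Dnah8 was also 2.38 ± 0.50 above cTEC (3.0 without cTEC replicate 1), while Dnah17 was not past the threshold there (1.10 ± 0.64).

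Outside the motors most genes were also low. Among the dynein arm assembly and docking genes, 10 of 15 tested were lower, from Armc4 (2.67%) and Dnaaf1 (4.34%) to Cfap298 (49.6%). Dnaaf3, a cytoplasmic assembly factor, was at 158% (0.66 ± 0.20, adjusted p = 0.0105), but not past the threshold without lung replicate 3 (adjusted p = 0.0674). Spag1, at 75.6%, did not pass, and Pih1d3 had no read in either group. All 49 other axonemal and ciliary genes were lower, 38 of them at 1 to 10% of lung. Dynlrb2, a dynein light chain, was at 1.57%, while Hydin, of the central pair, was at 7.45% (6.48, 4.02 and 5.29 CPM against 92.0, 77.2 and 42.7 CPM). Tppp3, a tubulin-binding protein with 1213, 1334 and 1394 CPM in lung, was at 3.13%, and Cfap43, of the axoneme, at 7.12%. The least depleted were Gas8 (55.4%) and Capsl (51.4%). Gas8 lost its call without mTEC replicate 1 or 2 or lung replicate 1 (adjusted p of 0.0559 to 0.0719), and Capsl without mTEC replicate 1 or 3 or lung replicate 1 (0.0514 to 0.106).

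Within the thymus most ciliary genes, like most genes, did not pass between mTEC and cTEC. Against cTEC 72 of the 81 structure genes did not pass, 5 were higher and 4 lower, with a median of -0.02 against 0.07 over all genes. Of all genes, 24.7% passed there, 15.2% higher in mTEC and 9.45% lower. The higher genes were Dnah1, Dnah8, Dnaic2 (2.43 ± 0.61), Dnaaf3 and Capsl, and Hydin was among the lower ones (-1.74 ± 0.28). Of the higher genes, Dnah8 kept its call whichever single library was left out. Dnah1 lost its call without mTEC replicate 1 or 3 or cTEC replicate 2 or 3 (adjusted p of 0.0643 to 0.0941), and Capsl without mTEC replicate 1 or 2 or cTEC replicate 2 or 3 (0.0728 to 0.0933). Dnaic2 lost it without mTEC replicate 1 (adjusted p = 0.0680) and came to 3.09 without cTEC replicate 1, and Dnaaf3 lost it without cTEC replicate 2 (adjusted p = 0.0503). With the replicate block 5 dyneins were higher instead of 3, and of the other axonemal genes 3 were higher instead of 1 and 6 lower instead of 3. Without cTEC replicate 1, 5 dyneins and 4 of those other genes were higher, and without mTEC replicate 1, 1 and 0. Summed over the lists, levels were 400 to 534 CPM in mTEC, 327 to 550 CPM in cTEC, 340 to 599 CPM in skin and 329 to 370 CPM in colon, against 3725 to 4972 CPM in lung. Within mTEC, 14 of the 15 dyneins with at least 1 CPM were lowest in replicate 2, as were 39.5% of all tested genes at that level. That library also had the lowest Aire. In lung, 77 of 80 ciliary structure genes were highest in replicate 1 and 78 lowest in replicate 3. The part of these library differences in the results was not tested.

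Club cells secrete protective proteins and metabolize inhaled compounds. Of 22 club-cell genes, 16 were lower in mTEC, 2 higher and 4 neither (median 7.17% of lung). Scgb1a1, the club-cell secretoglobin (chr19:9083636-9087958), was at 14.1, 9.38 and 38.5 CPM against 4809, 2440 and 3112 CPM, or 0.599% (-7.38 ± 0.93; -8.17 without mTEC replicate 3). Scgb3a2 stood at 1.01% and Scgb3a1 at 4.69%. Scgb3a1 came to -3.61 instead of -4.39 without lung replicate 1. The secretoglobins did not pass against cTEC, and cTEC held Scgb1a1 at 3.01 to 5.82 CPM. Cyp2b10 (0.0539%), a cytochrome P450, and Sec14l3 (0.0639%), a lipid-binding protein, were the lowest, with 2176 and 5644 CPM in lung replicate 2, in which Scgb1a1 was lowest.

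Cyp2f2, a P450 that activates naphthalene in club cells, was at 93.8, 122 and 135 CPM in mTEC against 2207, 511 and 1172 CPM (9.01%; -3.47, or -2.86 without lung replicate 1). It was 1.64 ± 0.45 above cTEC, a call lost without cTEC replicate 3 (adjusted p = 0.0697) or mTEC replicate 3 (adjusted p = 0.0505). Cyp2a5, a P450 of liver and airway, was higher in mTEC, at 138, 48.9 and 74.5 CPM against 14.5, 7.49 and 6.90 CPM (904%, 3.18 ± 0.41). Upk3a, a uroplakin that marks a subset of mouse club cells, was also higher, by 3.61 ± 0.91 (4.40 without lung replicate 1). Against cTEC, 9 of the 22 were higher and 4 lower, with 3 higher when cTEC replicate 3 was left out. Summed over the 22 genes, however, levels were lower in mTEC (554 to 684 CPM) than in cTEC (1287 to 1744 CPM). The sums were 271 to 353 CPM in skin, 629 to 984 CPM in colon and 13837 to 18879 CPM in lung.

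Most goblet and mucous genes ran in the opposite direction, many of them with little lung signal. Of 16, 11 were higher in mTEC than in lung, 2 lower and 3 neither, and the median log2 fold change was 2.58. The 5 with at least 5 CPM in lung had a median of 122% of lung. Muc5ac, a gel-forming mucin of airway and stomach surface cells (chr7:141788972-141819231), was at 23.3, 4.75 and 12.1 CPM in mTEC against 0.0923, 0.116 and 0.0309 CPM, 8 reads in all lung libraries (7.28 ± 1.09, adjusted p = 4.33e-05; 6.66 without mTEC replicate 1). It was 4.46 ± 0.92 above cTEC, or 3.81 without mTEC replicate 1 and 6.27 without cTEC replicate 1. Tff1, a trefoil peptide of stomach mucus, had 444 reads in mTEC and none in lung, and Itln1, an intestinal lectin, 521 and none. Set against a floor of 3 reads over all lung libraries, Tff1 was at least 242-fold and Itln1 at least 284-fold higher in mTEC. Fcgbp, an IgG-binding mucus protein, reached 5125, 4251 and 7079 CPM against 10.1 to 10.5 CPM (9.05 ± 0.56), and averaged 4549 CPM in colon and 1212 CPM in skin.

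Spdef, the factor that drives goblet differentiation, was at 458% (2.19 ± 0.70, adjusted p = 0.0132), a call lost without lung replicate 2 (adjusted p = 0.0502) or 3 (0.0550). Muc5b, the mucin that dominates in normal airways, was at 4.88, 2.74 and 4.99 CPM against 3.29, 1.45 and 1.67 CPM and did not pass (0.98 ± 0.86). The genes below lung were Muc4, a membrane mucin, at 11.8%, and Dnajc10, an endoplasmic reticulum reductase, at 57.8%. Dnajc10 did not pass without mTEC replicate 2 (adjusted p = 0.0708). Against cTEC 11 of the 16 were higher, and 5 to 12 when single libraries were left out, the fewest without mTEC replicate 1. In mTEC, 13 of 14 goblet genes with at least 1 CPM were lowest in replicate 2.

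The BPI-fold proteins are secreted defence proteins of airway, nose and salivary gland, and BPIFB1 is a known lung autoantigen in Aire deficiency. Their genes form a cluster on chromosome 2, here from Bpifb2 (start 153875045) to Bpifb9b (end 154320646). Members with more lung reads did not differ detectably from lung. Bpifa1 was at 62.5, 50.6 and 63.3 CPM in mTEC against 286, 11.7 and 160 CPM (38.5%, -1.38 ± 0.68, adjusted p = 0.0909), Bpifb1 at 67.1% (-0.57 ± 0.73) and Bpifb5 at 89.6% (-0.16 ± 0.79). Their groups overlapped. Bpifb2, Bpifb3, Bpifb4, Bpifb9a and Bpifb9b had no lung read. Against the same floor they were at least 64.8, 114, 45.2, 19.6 and 51.7 times higher in mTEC. Bpifb9b came to 2.82, 0.837 and 1.04 CPM, or 95 reads.

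Other gland genes were mostly high in mTEC. Lpo, lactoperoxidase, was at 236, 184 and 243 CPM against 10 reads, all in lung replicate 1 (11.02 ± 0.98; 15.19 without that library, fitted against no lung read). Kcnrg, a bronchial autoantigen of people with AIRE deficiency, was below lung, at 6.32% (-3.98 ± 0.86). In all, 9 of 14 tested genes of the list were higher in mTEC than in lung and 1 lower. Against cTEC 9 were higher, and 1 to 8 when a library was left out, the fewest without mTEC replicate 1. Bpifa1 was not among them (-0.51 ± 0.67). All 12 members with at least 1 CPM in mTEC were lowest in mTEC replicate 2.

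Basal cells are the stem cells of the airway. Of 11 basal-cell genes 7 were higher than in lung and 3 lower. Krt5, the basal keratin, measured 3039, 4268 and 3956 CPM in mTEC against 197, 8.04 and 88.3 CPM (5.26 ± 0.82), and Trp63, the basal master regulator, was at 766% (2.94 ± 0.56). Krt14 (7.27) and Krt17 (5.76) were likewise higher. Without lung replicate 1, the log2 values of Krt5, Trp63, Krt14 and Krt17 came to 6.27, 4.04, 11.49 and 6.81, and 10 of 11 basal genes were lowest in lung replicate 2. Krt15 was lower in mTEC (17.8%), a call lost without lung replicate 1 (adjusted p = 0.0552), and so was Aqp4 (15.1%). Against cTEC 2 were lower and 9 did not pass, while 6 were higher with the replicate block.

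Neuroendocrine cells sense the airway and release peptides and amines. Of 13 genes, 9 were higher than in lung and 9 higher than in cTEC. The 3 with at least 5 CPM in lung had a median of 76.9% of lung. Calca, which encodes the peptides calcitonin and CGRP, was at 39.9, 18.1 and 31.4 CPM against 1.66, 4.60 and 4.95 CPM (2.99 ± 0.59) and 4.08 ± 0.64 above cTEC (4.70 without cTEC replicate 1). Chga, chromogranin A, was 8.45 ± 0.65 above lung but did not pass against cTEC (0.12 ± 0.44). Ddc, an enzyme of amine synthesis, was below lung, at 14.8%.

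Ionocyte and tuft genes included several without lung reads. Foxi1, the ionocyte factor, was at 7.19, 1.79 and 4.64 CPM in mTEC against 0.923, 0 and 0.0309 CPM (3.82 ± 1.26, adjusted p = 0.0180). Without lung replicate 1 the value was 7.75, and it did not pass without lung replicate 3 (adjusted p = 0.0624) or mTEC replicate 1 (adjusted p = 0.0643). Foxi2 and Bsnd had no lung read and were at least 52.3 and 44.6 times higher. Cftr, the chloride channel that ionocytes carry at high levels, was at 109% of lung (0.12 ± 0.44) and 2.98 ± 0.55 above cTEC (4.10 without cTEC replicate 1). The proton-pump subunits Atp6v1c2 and Atp6v0d2 were lower, at 10.6 and 12.9%. In all, 4 of 8 tested ionocyte genes were higher than in lung and 2 lower, while 34.9% of all genes were higher and 28.6% lower. The 4 members with at least 5 CPM in lung had a median of 36.0% of lung. Summed over the list, levels were 20.5 to 34.2 CPM in mTEC, 51.2 to 101 CPM in lung and 2.41 to 8.81 CPM in cTEC. Against cTEC 4 were higher (7 with the replicate block) and 0 lower.

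Tuft cells are chemosensory, and a tuft-like form is well known in the thymic medulla. Of 12 tuft-cell genes 11 were higher than in lung. Pou2f3, the tuft-cell master regulator, was at 36.8, 31.0 and 35.6 CPM against 10 lung reads (8.34 ± 0.48), and Chat, with 397 reads in mTEC and none in lung, was at least 216 times higher. Pou2f3 passed against cTEC (0.88 ± 0.30) and the other members did not. Its call was lost without mTEC replicate 1, 2 or 3 or cTEC replicate 2 or 3 (adjusted p of 0.0647 to 0.175), while 4 were higher with the replicate block.

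To describe the lung programme without a gene list, lung-selective genes were defined as those at least 8-fold higher in lung than in both skin and colon, with an adjusted p under 0.05 in both and a mean of at least 5 CPM in lung. There were 784, and 650 of them were in no list. As the lung libraries chose them, their shares in mTEC are a description. The median stood at 7.49% of lung, with an interquartile range of 2.98 to 21.1%. Taken alone, the mTEC libraries gave medians of 8.99, 5.94 and 7.40%. Of the 784, 10 were under 0.1%, 63 at 0.1 to 1%, 377 at 1 to 10%, 288 at 10 to 100% and 46 above lung. By list, the median was 0.302% for 17 alveolar type 1 genes, 2.84% for 9 surfactant genes, 5.77% for 60 ciliary structure genes and 4.29% for 14 club-cell genes. Markers of other cell types were among the 784 too: 5 mesothelial, 3 myeloid, 2 fibroblast and 1 endothelial. Of these, 1 mesothelial and 1 myeloid marker were above lung. The part of such cells in the 784 was not tested.

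The 8 most abundant in lung were Ager, Sparc (3.19%), Sftpc, Emp2 (4.65%), Vegfa (1.48%), Sec14l3, Clic5 (1.34%) and Cldn18. Sparc is a matrix glycoprotein, Vegfa an endothelial growth factor and Emp2 a membrane protein of type 1 cells. The 8 highest relative to lung were Colq, Tmem150c, Pax9, Slc24a4, Eya1, Cyp2a5, Ankrd33b and Diras2, at 1970 to 562%. Colq anchors acetylcholinesterase, and its enzyme partner Ache was among the genes furthest above lung. Pax9 and Eya1 are factors of the pharyngeal pouches, from which the thymus arises, and did not pass against cTEC (-0.42 ± 0.48 and -0.26 ± 0.43). Diras2, a small GTPase, was at -2.48 ± 0.24 against cTEC.

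Against cTEC, which the rule did not use, 135 of the 784 were higher in mTEC (17.2%, against 15.2% of all genes) and 106 lower (13.5%, against 9.45%). The median log2 difference was 0.07, as it was over all genes. By list, 7 of the 9 surfactant genes and 8 of the 14 club-cell genes were higher in mTEC than in cTEC, and 2 of the 60 ciliary structure genes were, with 4 lower. Of those club-cell genes 2 were lower, and the full club-cell list summed to more in cTEC than in mTEC.

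**Figure D4:**
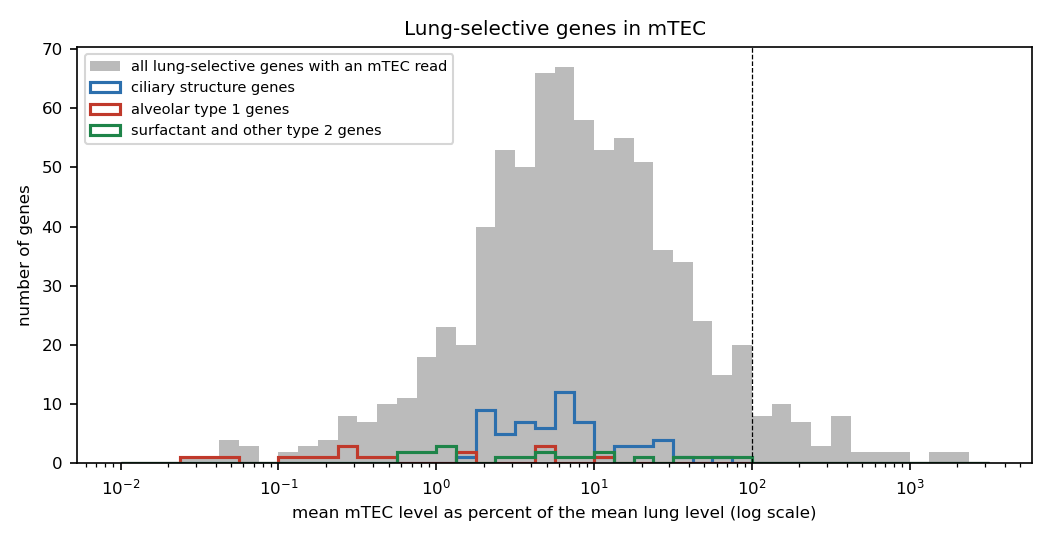
Number of lung-selective genes (y) by mean mTEC level as a percent of the mean lung level (x, log scale); gray bars hold all genes with an mTEC read, and coloured outlines hold genes of the named lists. The bulk lies at 1 to 100% around the median of 7.49%, alveolar type 1 genes reach down to 0.0302%, and 46 genes lie to the right of the dashed line at 100%.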

How the data were processed

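Sense-strand read counts per gene, the deposited counts of the aligner, were the main measure, and the authors' deposited RSEM expected counts (rounded to whole numbers) an alternative. Reads were processed by the authors with bcl2fastq 2.20, STAR 2.5.1b and RSEM 1.2.28 on GRCm38, per the submitters' processing notes, with a gene annotation not given in the sources used here. Gene coordinates were looked up by gene ID in a GENCODE mouse annotation of GRCm38. The authors' deposited TPM values were read but support no result.

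Counts of all 15 libraries, 12946533 to 41978665 gene reads each, were fitted together in edgeR 4.0.16 (R 4.3.3) with TMM scaling, filterByExpr and a term per group. The quasi-likelihood F-test was run for mTEC against lung and against cTEC, with Benjamini-Hochberg adjustment over 19107 genes and a threshold of 0.05. A share of the lung level is the ratio of mean CPM. Intervals and floors cover counting error only. The labels do not say that the pools of a group are independent, so p-values measure the spread between these libraries. Counts were also simulated for 18439 genes, with equal means in all groups except for 200 genes changed in mTEC. The test recovered 33% of genes changed 2-fold and 74% of those changed 4-fold, with 1.83% of its calls false. In the data 63.6% of genes passed against lung, so these simulated shares do not carry over to that comparison.

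Same-numbered mTEC and cTEC libraries deviated together (r across genes 0.290, 0.278 and 0.156), so a fit with the number as a block is given where it moves a count by over 1.5 times. For list counts this fit held only the mTEC and cTEC libraries. Over all genes 7091 passed in it, against 5659 in those libraries without the block and 4714 in the main fit. Skin replicate 1 stood apart, with more Sftpc than the other skin libraries. The lists and members were chosen with earlier results of these data known. Named genes were a fixed set of marker genes, plus from each list the 2 most abundant in lung and the 2 highest and 2 lowest against lung. The 8 extremes among all genes that met the ranking rules given above were added, as were those among lung-selective genes. Some genes that this rule covers are not reported here. Other genes named were picked after their values were seen. A listed gene without a match in the tables was left out. The alternatives were other scalings, filters, count types, thinning, DESeq2 1.42.0, a test against a 2-fold change, the block and leaving out single libraries.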

Additional observations from a re-analysis of the deposited data

How the results depend on the processing

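The alternatives were compared for single genes and for the call counts of the lists. Together, 14078 of these values kept their side of the threshold (genes) or stayed within 1.5 times (counts). Of the list counts, 207 moved by over 1.5 times. Of the gene values, 573 no longer passed, 288 newly passed and 1 reversed. The last was Armc4 against cTEC, at 6.02 (adjusted p = 0.0155) without cTEC replicate 1, which held all of its cTEC reads; without other single libraries it reached -1.06. Of 325 listed or named genes called against lung, 29 lost the call without some library and 96 lost it or moved over 1.5-fold. Of 156 such genes called against cTEC, 77 and 95 did. When tested against a 2-fold change, 7322 genes passed between mTEC and lung (2673 lower) and 1158 between mTEC and cTEC (921 higher, 237 lower). The replicate block gave 11936 and 4431 calls in a fit of all libraries, and 7091 (3167 lower) with only mTEC and cTEC, a fit chosen after seeing the data, as was the one without skin replicate 1. Same-numbered mTEC and lung libraries did not deviate together, so that block pairs nothing. Without single libraries, calls against lung ranged from 10999 to 11708 (higher 6154 to 6702, lower 4812 to 5073) and against cTEC from 2408 to 4207 (higher 1513 to 2721, lower 895 to 1486), the fewest without mTEC replicate 1; without cTEC replicate 2 there were 3075 (1819 higher). Without skin replicate 1, 13278 genes passed against lung (7375 higher, 5903 lower) and 5805 against cTEC (3625 higher, 2180 lower). With the lung-selective rule set at 4-fold there were 1190 genes with a median of 12.1%, and at 16-fold 526 with 5.57%. DESeq2 size factors and upper-quartile scaling moved the median gene against lung to 0.27 and 0.36. The causes were not tested. Depth limits genes with few lung reads, whose fold changes rest on a handful of counts.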
